A study of Mus musculus with 24 samples.

Results

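Branched-chain amino acid and ketone catabolism was followed in mouse mammary fat through 10 genes: Bcat2, Bckdha, Bckdhb, Dbt, Hibadh, Mccc1, Pcca, Oxct1, Bdh1 and Aacs. They were taken by symbol from a count matrix of 39017 genes, in which each of the 10 had 1 row. The samples were total RNA libraries, depleted of ribosomal RNA, from the subcutaneous fat at the 4th mammary gland of C57BL/6 mice. The 24 libraries formed 6 groups of 4. These were peritumoral, contralateral and no-tumor fat of mice labelled HFD, and the same 3 positions in mice labelled Chow. The series calls its animals obese and lean and sets fat close to a breast tumor against fat far from it. Neither the labels nor the design text give the make-up or length of the diets, the tumor cells or the age of the mice. Nor do they say whether the 4 libraries of a group are 4 animals. The p-values below therefore rest on library-to-library spread alone, and that spread may be technical.

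Leucine, isoleucine and valine first lose their amino group to a branched-chain aminotransferase, and the resulting keto acids are then decarboxylated in mitochondria by the branched-chain keto acid dehydrogenase complex. Separate routes carry the products to acetyl-CoA, acetoacetate or propionyl-CoA, and white adipocytes use them both as fuel and as carbon for fat synthesis. Ketone bodies made mainly in the liver are burned in other tissues after Oxct1 returns acetoacetate to its CoA form, whereas Aacs does so in the cytosol for the synthesis of lipids.

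Adipocyte identity was plain in every library: all 9 adipocyte markers were above 0 throughout, and the least abundant of them, Retn, averaged 416 CPM (counts per 1 M counts of the library, scaled with TMM factors over the 24 libraries). Library totals ran from 9.13 to 18.2 M counts. The 4 Chow contralateral libraries, replicates 1 to 4, held summed skeletal muscle markers of 5045, 3498, 80.9 and 2849 CPM. Of the other groups, the highest single libraries were Chow peritumoral replicate 2 with 2795 CPM and Chow no-tumor replicate 3 with 1119 CPM, and no HFD library exceeded 276 CPM. B cell markers summed to 119 CPM in Chow contralateral replicate 4 and to 122 CPM in HFD peritumoral replicate 2, the highest libraries of their groups. Results that rest on Chow contralateral fat are therefore also given with replicate 3 as the lone library of its group, a choice made after seeing the data, in which that library is assumed to vary like the other group. A lone library leaves little power, so a call lost in that fit does not by itself mean that the difference became smaller.

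Of the enzymes of branched-chain breakdown, Bcat2 is the mitochondrial aminotransferase (ENSMUSG00000030826, mm10 chromosome 7, 45570153 to 45589710, plus strand). Bckdha (ENSMUSG00000060376, chromosome 7, 25629852 to 25658761, minus strand) and Bckdhb (ENSMUSG00000032263, chromosome 9, 83925150 to 84124239, plus strand) encode the alpha and beta chains of the decarboxylase of the dehydrogenase complex. Dbt encodes its acyltransferase core (ENSMUSG00000000340, chromosome 3, 116513070 to 116549976, plus strand). Mccc1 encodes the biotin-carrying subunit of the leucine-route carboxylase (ENSMUSG00000027709, chromosome 3, 35959312 to 36000678, minus strand). Hibadh is a dehydrogenase of the valine route (ENSMUSG00000029776, chromosome 6, 52546228 to 52640389, minus strand). Pcca encodes the biotin-carrying subunit of propionyl-CoA carboxylase, where the valine and isoleucine routes meet (ENSMUSG00000041650, chromosome 14, 122534324 to 122891100, plus strand). The ketone genes were Oxct1 (ENSMUSG00000022186, chromosome 15, 4026383 to 4155344, plus strand), Bdh1 (ENSMUSG00000046598, chromosome 16, 31422280 to 31458901, plus strand) and Aacs (ENSMUSG00000029482, chromosome 5, 125475814 to 125517412, plus strand). Bdh1 interconverts the ketone bodies 3-hydroxybutyrate and acetoacetate.

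On the level scale that allows for gene length, CPM per kilobase of exon averaged over the 24 libraries, 3 genes led: Oxct1 at 50.3, Bckdha at 47.5 and Hibadh at 45.4. Bckdhb at 22.04, Aacs at 18.3 and Dbt at 15.4 formed a middle range, and Pcca at 9.56, Bcat2 at 9.13 and Mccc1 at 7.16 lay below them. Bdh1 stood far under the rest at 0.254 CPM per kilobase, with only 4 to 23 counts in a library, so that changes in it could hardly be seen at this depth. For every member except Oxct1 the lowest of the 6 group means was that of HFD peritumoral fat. For Bckdha that mean, 65.0 ± 14.8 CPM, was nearly equal to the 65.7 ± 16.1 CPM of Chow peritumoral fat (SD, n = 4 each). Oxct1 had its highest group mean in HFD contralateral fat, 264 CPM, and its lowest in Chow contralateral fat, 120.3 CPM, a ratio of 2.20, the widest among the 10 genes. Exons of 5 members shared bases with a gene on the opposite strand in the authors' annotation, from 1.9% of the exon bases of Mccc1 to 16% of those of Bcat2, and 12.6% of those of Oxct1. Whether reads were counted by strand is unknown here, so such genes may share reads. The partner of Oxct1, BC037032, itself had few counts, for example 1.57 CPM in Chow contralateral replicate 1.

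Promoters are shown for 4 genes: Oxct1 and Bcat2, which moved in opposite directions with diet, and Mccc1 and Pcca, which encode carboxylase subunits. All 4 were among the 9 members that fell beside the tumor on HFD. The sequences are RefSeq's on GRCm38.p6, the 250 bases before the annotated start in the direction of the gene, and capitals mark CCAAT boxes (CCAAT, or ATTGG for a match on the other strand). They lie at chr15:4026178-4026427 (Oxct1, plus strand), chr7:45569903-45570152 (Bcat2, plus strand), chr3:36000679-36000928 (Mccc1, minus strand) and chr14:122534078-122534327 (Pcca, plus strand).
Oxct1: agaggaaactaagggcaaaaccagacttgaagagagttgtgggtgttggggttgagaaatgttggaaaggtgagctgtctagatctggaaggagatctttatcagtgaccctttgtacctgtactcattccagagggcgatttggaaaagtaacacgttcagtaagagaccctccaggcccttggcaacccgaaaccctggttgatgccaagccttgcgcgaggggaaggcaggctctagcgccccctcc
Bcat2: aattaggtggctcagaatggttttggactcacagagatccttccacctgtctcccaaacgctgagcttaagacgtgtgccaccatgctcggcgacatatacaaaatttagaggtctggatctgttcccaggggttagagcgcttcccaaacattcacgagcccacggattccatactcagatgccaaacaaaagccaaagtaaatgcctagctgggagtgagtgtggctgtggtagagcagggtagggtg
Mccc1: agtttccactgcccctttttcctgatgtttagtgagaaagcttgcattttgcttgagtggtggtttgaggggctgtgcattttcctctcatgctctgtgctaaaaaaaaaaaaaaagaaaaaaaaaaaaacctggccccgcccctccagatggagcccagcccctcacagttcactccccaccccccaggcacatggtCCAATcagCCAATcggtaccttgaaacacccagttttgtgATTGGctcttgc
Pcca: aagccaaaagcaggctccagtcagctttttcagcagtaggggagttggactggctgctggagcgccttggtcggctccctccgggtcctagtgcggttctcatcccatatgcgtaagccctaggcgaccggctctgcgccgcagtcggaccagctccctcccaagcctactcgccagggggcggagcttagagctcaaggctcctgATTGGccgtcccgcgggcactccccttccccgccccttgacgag
RefSeq promoters, here 250 bases before to 50 after the start, were found for 9 of the 10 members, Dbt being the one without an entry. A CCAAT box was present on either strand in 4 of these 9 (Bckdhb, Hibadh, Mccc1 and Pcca), and in 37.4% of the 32851 promoters of the same length in the table. The E-box CACGTG (7.15% of promoters) and the estrogen-related receptor element TCAAGGTCA (0.42%), searched on both strands, were found in 0 of the 9. So were the longer NRF1 palindrome (0.97%) and the DR1 element of nuclear receptors (0.04%). These are matches of letters within short windows and were not related to any measured binding.

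**Figure D1:**
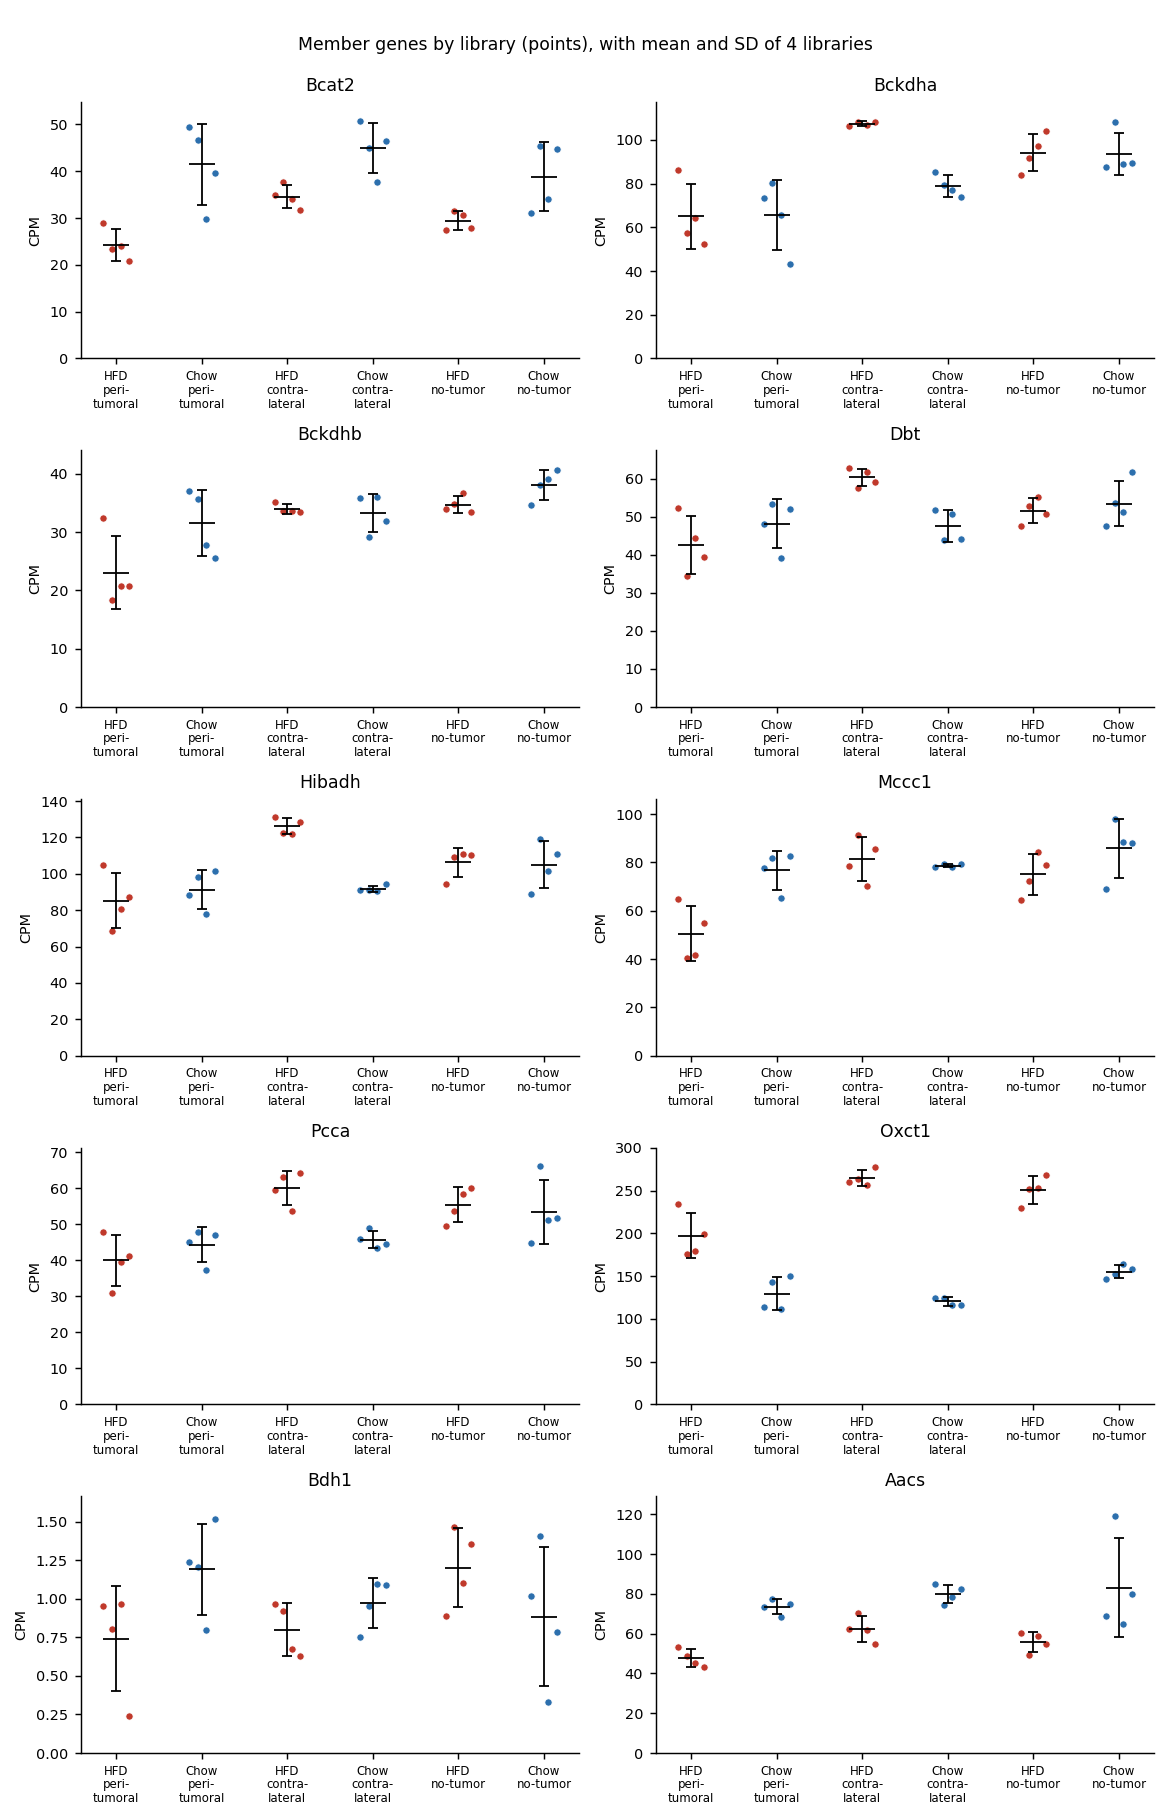
CPM of the 10 genes in each library (points) with the mean and SD of 4 libraries per group (bars), each panel on its own axis starting at 0, and HFD in red beside Chow in blue at each position. Oxct1 lay between 176 and 277 CPM in the HFD libraries and between 112 and 164 CPM in the Chow libraries. HFD peritumoral fat had the lowest mean for the other 9 genes, nearly equal to that of Chow peritumoral fat for Bckdha.

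Fat beside the tumor was compared with fat of the opposite side of tumor-bearing mice, first on HFD. Here 9 of the 10 genes fell: all 7 branched-chain genes, and Oxct1 and Aacs of the ketone genes. The exception was the sparsely counted Bdh1. The fitted fold of HFD peritumoral over HFD contralateral fat was 0.608 to 0.768 for these 9 genes.

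Bckdha showed the largest difference of the 9. It had 86.1, 57.4, 64.1 and 52.6 CPM in HFD peritumoral replicates 1 to 4, against 106, 108, 107 and 108 CPM in HFD contralateral replicates 1 to 4. The contralateral libraries were nearly equal, while the peritumoral ones were spread widely below them, with replicate 1 the highest. The log2 fold change was -0.72 ± 0.13 (SE), with an adjusted p of 0.00597 by edgeR's quasi-likelihood test with Benjamini-Hochberg adjustment over 15627 genes. Its partner chain Bckdhb had 32.4, 18.4, 20.8 and 20.7 CPM in HFD peritumoral fat, against 35.2, 33.6, 33.7 and 33.5 CPM in HFD contralateral fat. Peritumoral replicate 1 lay just under the contralateral range and the other 3 libraries far below it. The Bckdhb difference was -0.55 ± 0.16 (adjusted p 0.0271, edgeR). It no longer passed when any single library other than HFD peritumoral replicate 1 was left out, with log2 fold changes of -0.45 to -0.56 and adjusted p between 0.0501 and 0.0738 in those 7 fits. Dbt, the third component, averaged 42.6 ± 7.60 CPM in HFD peritumoral and 60.3 ± 2.35 CPM in HFD contralateral fat (SD, n = 4 each), a log2 fold change of -0.49 ± 0.11 (edgeR adjusted p 0.0133).

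Both carboxylase subunits fell. Mccc1 had 64.8, 40.6, 41.8 and 54.8 CPM in HFD peritumoral fat, against 78.6, 91.3, 70.4 and 85.6 CPM in HFD contralateral fat, and its log2 fold change was -0.68 ± 0.15 (edgeR adjusted p 0.0114). Pcca had 48.0, 31.0, 39.7 and 41.2 CPM in HFD peritumoral fat, against 59.5, 63.0, 53.6 and 64.2 CPM in HFD contralateral fat, and its log2 fold change was -0.58 ± 0.12 (edgeR adjusted p 0.00949). In both genes peritumoral replicate 1 was nearest to the contralateral libraries, without reaching them. Hibadh averaged 85.3 ± 15.03 CPM in HFD peritumoral and 126 ± 4.44 CPM in HFD contralateral fat (SD, n = 4 each), with a log2 fold change of -0.56 ± 0.11 (edgeR adjusted p 0.00851). Bcat2 had 29.0, 23.4, 24.1 and 20.8 CPM in HFD peritumoral fat, against 34.9, 37.7, 34.0 and 31.8 CPM in HFD contralateral fat. Every peritumoral library was below every contralateral one, and the log2 fold change was -0.50 ± 0.11 (edgeR adjusted p 0.0096).

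Of the ketone genes, Oxct1 had 234, 176, 179.9 and 199.8 CPM in HFD peritumoral fat, against 259.6, 264, 257 and 277 CPM in HFD contralateral fat. The groups did not overlap, and the log2 fold change was -0.41 ± 0.10 (edgeR adjusted p 0.0153). Aacs had 53.5, 48.7, 45.3 and 43.2 CPM in HFD peritumoral fat, against 62.3, 70.6, 61.7 and 54.9 CPM in HFD contralateral fat, with a log2 fold change of -0.38 ± 0.10 (edgeR adjusted p 0.0178). The highest peritumoral library came close to the lowest contralateral one. The Aacs difference missed the threshold without HFD contralateral replicate 2 (-0.31, adjusted p 0.0555) and without HFD peritumoral replicate 4 (-0.34, adjusted p 0.0517). Bdh1 averaged 0.742 ± 0.34 CPM in HFD peritumoral and 0.799 ± 0.17 CPM in HFD contralateral fat (SD, n = 4 each), and its difference of -0.09 ± 0.39 on the log2 scale was smaller than its error (edgeR adjusted p 0.868).

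Over all genes tested, 29.5% were called in this comparison, 16.8% of all as higher and 12.7% of all as lower in HFD peritumoral fat, against 9 of 10 members, all lower. The members' median log2 fold change was -0.53, and that of all genes -0.02. Summed adipocyte markers were 9900.2 to 18754 CPM in HFD peritumoral and 20621 to 23176 CPM in HFD contralateral libraries, a ratio of means of 0.633 (two-sided exact permutation p 0.0286, the smallest that 4 against 4 libraries allow, 0.05 after adjustment over 7 comparisons). Of the 9 adipocyte markers 7 fell, and their median log2 fold change was -0.75. Summed macrophage markers were 1913 to 2751 CPM in HFD peritumoral and 1073 to 1367 CPM in HFD contralateral libraries. HFD peritumoral replicate 1 had the highest adipocyte sum of its group, 18754 CPM, and was the highest of its group for 9 of the 10 members; without it the same 9 members were called. The part of cell composition in the fall was not tested. In bulk tissue, fewer cells of a type and less RNA per cell cannot be told apart.

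**Figure D2:**
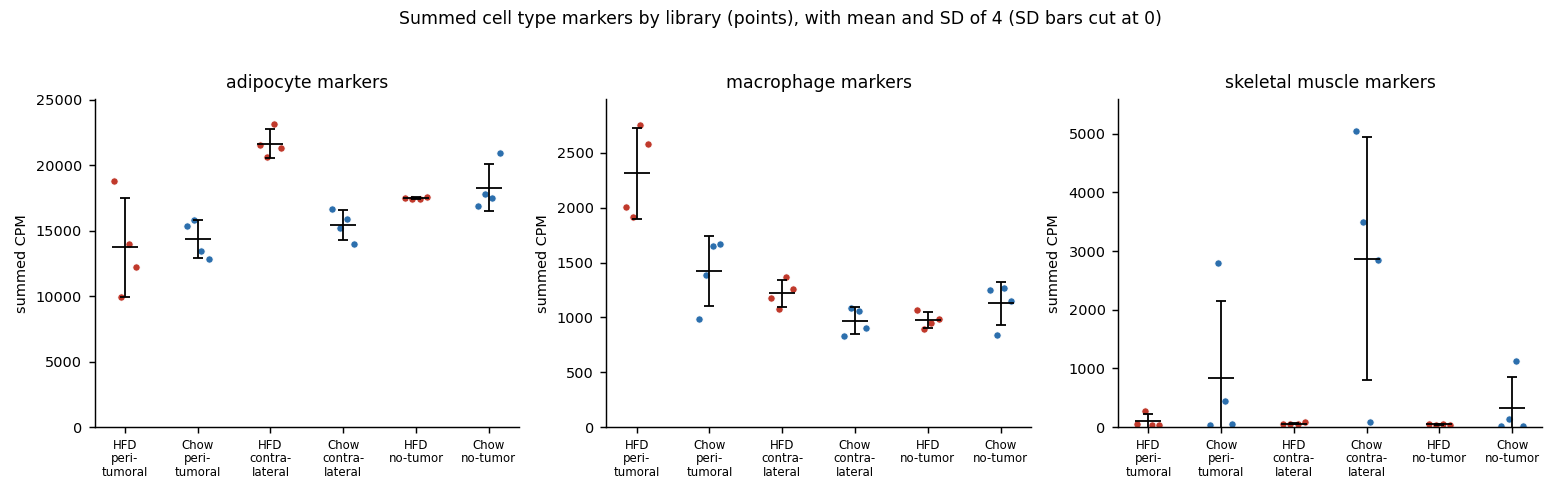
Summed CPM of adipocyte (9 genes), macrophage (6 genes) and skeletal muscle (10 genes) markers in each library (points), with the mean and SD of 4 libraries (bars, cut at 0). HFD peritumoral fat had 9900.2 to 18754 CPM of adipocyte markers, against 20621 to 23176 CPM in HFD contralateral fat, and muscle markers stood highest in 3 of the 4 Chow contralateral libraries.

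On Chow the same comparison of sides gave 0 calls among the 10 members with edgeR, 0 at an unadjusted p under 0.05 and 0 with DESeq2. Over all genes, 0% were called, although 1381 of 16057 had an unadjusted p under 0.05 and DESeq2 called 19. Mccc1 averaged 76.8 ± 8.09 CPM in Chow peritumoral and 78.7 ± 0.75 CPM in Chow contralateral fat, and Hibadh 91.3 ± 10.6 CPM in Chow peritumoral and 91.7 ± 1.67 CPM in Chow contralateral fat (SD, n = 4 each). Bckdha had the lowest log2 fold change of the 10, -0.26 ± 0.14 (edgeR adjusted p 0.59). It had 73.3, 80.5, 65.5 and 43.3 CPM in Chow peritumoral fat, against 85.4, 79.5, 77.0 and 73.9 CPM in Chow contralateral fat, so 1 library, replicate 4, lay far below and the groups overlapped. On Chow the SD was larger beside the tumor than opposite it for every member but Aacs.

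Whether the side difference itself depended on diet was tested as an interaction over 16 libraries. The interaction was negative for all 10 members, from -0.23 ± 0.12 for Aacs to -0.62 ± 0.18 for Mccc1 on the log2 scale, and their median was -0.47, with 0.02 for all genes. None of the 10 passed (edgeR adjusted p at least 0.109), 6 had an unadjusted p under 0.05, as had 3349 of all 16859 genes, of which 0% were called. DESeq2 called 727 of all genes, and 5 members: Dbt, Hibadh, Mccc1, Pcca and Oxct1. Without HFD peritumoral replicate 1, edgeR called 6, these 5 and Bckdhb, with interactions of -0.58 to -0.75 and adjusted p of 0.00851 to 0.0198. Over all genes, edgeR called between 0 and 1911 when 1 library was left out, so the calls were not particular to the members. With edgeR on all 16 libraries the fall beside the tumor on HFD was therefore not shown to differ from Chow, and the call changed with the tool and with 1 library.

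**Figure D3:**
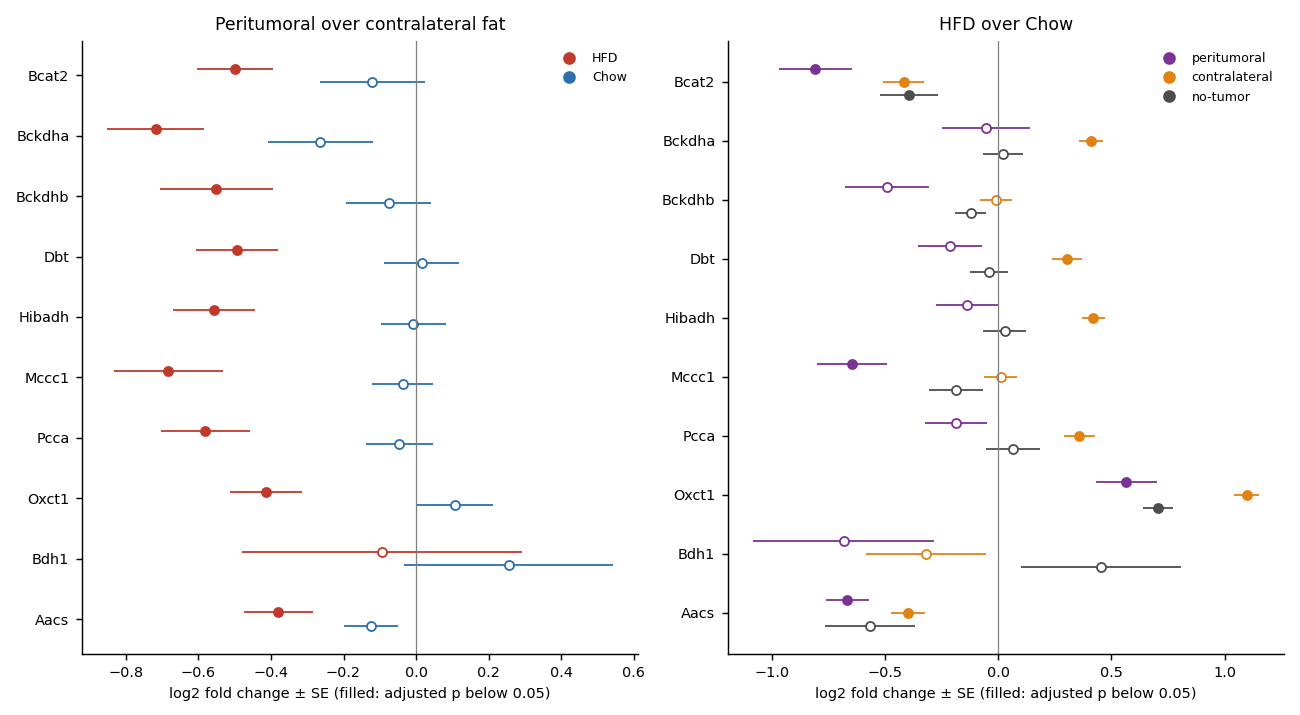
Log2 fold changes with their SE for the 10 genes, peritumoral over contralateral fat on each diet (left) and HFD over Chow at each position (right), with filled symbols for an adjusted p under 0.05. On the left, 9 filled HFD values lie between -0.72 and -0.38 while none of the Chow values is filled. On the right, Oxct1 lies at 0.57 to 1.10 at all 3 positions and Bcat2 at -0.81 to -0.39.

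Diet was compared at each of the 3 positions, and the ketone genes gave the clearest contrast. Oxct1, which commits acetoacetate to oxidation, was higher on HFD at all 3 positions. Aacs, which directs it to lipid synthesis, was lower on HFD in peritumoral and contralateral fat, and also averaged less in no-tumor fat without passing there. Bdh1 passed at none of them: its differences were -0.68 ± 0.40 in peritumoral, -0.32 ± 0.27 in contralateral and 0.46 ± 0.35 in no-tumor fat on the log2 scale (edgeR adjusted p 0.201, 0.342 and 0.385).

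In peritumoral fat Oxct1 had 234, 176, 179.9 and 199.8 CPM on HFD, against 114, 143, 112 and 149.7 CPM on Chow, a log2 fold change of 0.57 ± 0.14 (edgeR adjusted p 0.0113). In contralateral fat it had 259.6, 264, 257 and 277 CPM on HFD, against 125, 124, 116 and 116 CPM on Chow, a log2 fold change of 1.10 ± 0.05 (edgeR adjusted p 4.5e-07). Without a tumor it had 229, 252, 253 and 268 CPM on HFD, against 147, 152, 164 and 158 CPM on Chow, a log2 fold change of 0.71 ± 0.07 (edgeR adjusted p 1.4e-05). At each position the lowest HFD library stood above the highest Chow library. The contralateral value was 1.18 with Chow contralateral replicate 3 alone in its group, and that library, with the fewest muscle counts, had the lowest Oxct1 level of its group.

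Aacs had 53.5, 48.7, 45.3 and 43.2 CPM in HFD peritumoral fat, against 73.7, 77.3, 68.4 and 75.0 CPM in Chow peritumoral fat, a log2 fold change of -0.67 ± 0.10 (edgeR adjusted p 0.00122). In contralateral fat it had 62.3, 70.6, 61.7 and 54.9 CPM on HFD, against 85.1, 74.5, 78.5 and 82.4 CPM on Chow, a log2 fold change of -0.40 ± 0.08 (edgeR adjusted p 0.00117). Without a tumor it had 60.1, 49.2, 58.8 and 55.0 CPM on HFD, against 68.9, 119, 65.1 and 79.8 CPM on Chow, a log2 fold change of -0.57 ± 0.20 (edgeR adjusted p 0.0747). The diets did not overlap at any position, but the Chow no-tumor libraries were spread by replicate 2. Without that library the no-tumor difference was -0.33 and passed (adjusted p 0.00732), and it also passed without Chow no-tumor replicate 3 (-0.67, adjusted p 0.0462) and with DESeq2 (-0.57, adjusted p 0.0087). With Chow contralateral replicate 3 alone in its group, the contralateral difference was -0.34 and did not pass (adjusted p 0.0992).

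Within each library, the RNA levels of Oxct1 and Aacs were set against each other as a ratio in CPM per kilobase, which does not measure the use of acetoacetate. This ratio was chosen after the values were seen and is given with no test. It was 4.34, 3.58, 3.94 and 4.59 in HFD peritumoral fat, against 1.54, 1.83, 1.62 and 1.98 in Chow peritumoral fat. It averaged 4.24 ± 0.546 in HFD contralateral and 1.49 ± 0.112 in Chow contralateral fat, and 4.49 ± 0.584 in HFD no-tumor and 1.96 ± 0.512 in Chow no-tumor fat (SD, n = 4 each). All 12 HFD libraries lay above all 12 Chow libraries, and on HFD the ratio was much alike at the 3 positions although both genes fell beside the tumor.

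Among the branched-chain genes, Bcat2 was the only one called as lower on HFD at all 3 positions with edgeR, and its no-tumor call was fragile. It had 29.0, 23.4, 24.1 and 20.8 CPM in HFD peritumoral fat, against 49.5, 46.8, 29.9 and 39.7 CPM in Chow peritumoral fat. The highest HFD library lay just under the lowest Chow library, and the log2 fold change was -0.81 ± 0.16 (edgeR adjusted p 0.00497). In contralateral fat Bcat2 had 34.9, 37.7, 34.0 and 31.8 CPM on HFD, against 50.7, 45.0, 37.8 and 46.4 CPM on Chow, a log2 fold change of -0.42 ± 0.09 (edgeR adjusted p 0.00265). The lowest Chow value was that of replicate 3, the library with few muscle counts; with it alone in its group the difference was -0.14 and did not pass (adjusted p 0.443). The part of muscle tissue in the other 3 libraries in this difference was not tested. Without a tumor Bcat2 averaged 29.4 ± 2.05 CPM on HFD and 38.9 ± 7.33 CPM on Chow (SD, n = 4 each), a log2 fold change of -0.39 ± 0.13 (edgeR adjusted p 0.0481). That call was lost without Chow no-tumor replicate 2 or 4 and without any 1 of the 4 HFD no-tumor libraries, at -0.30 to -0.43 and adjusted p of 0.0699 to 0.12. It was also lost with no low-count filter (-0.39, adjusted p 0.0849) and with all 24 libraries in 1 fit (-0.36, adjusted p 0.0799).

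Of the 6 branched-chain members that act after Bcat2, 4 rose with HFD in contralateral fat. Bckdha rose with HFD, with 106, 108, 107 and 108 CPM on HFD, against 85.4, 79.5, 77.0 and 73.9 CPM on Chow, a log2 fold change of 0.41 ± 0.05 (edgeR adjusted p 9.5e-05). Hibadh rose too, with 131, 123, 122 and 128 CPM on HFD, against 91.0, 91.2, 90.5 and 94.2 CPM on Chow, a log2 fold change of 0.42 ± 0.05 (edgeR adjusted p 4.4e-05). The libraries of each diet lay close together in both genes, with a wide gap between the diets. Pcca rose by 0.36 ± 0.07 (adjusted p 0.00132) and Dbt by 0.30 ± 0.07 (adjusted p 0.00267) on the log2 scale by edgeR, again with no overlap. Bckdhb, whose product pairs with that of Bckdha, averaged 34.0 ± 0.80 CPM on HFD and 33.3 ± 3.32 CPM on Chow, and Mccc1 81.5 ± 9.03 CPM on HFD and 78.7 ± 0.75 CPM on Chow (SD, n = 4 each). Neither passed (edgeR adjusted p 0.925 and 0.909). With Chow contralateral replicate 3 alone in its group, Bckdha, Hibadh and Pcca still passed at 0.47, 0.47 and 0.46, and Dbt did not at 0.24 (adjusted p 0.113).

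In no-tumor and peritumoral fat none of these 4 genes passed. The log2 fold changes of Bckdha, Hibadh, Pcca and Dbt in no-tumor fat were between -0.04 and 0.07, and in peritumoral fat between -0.21 and -0.05. Mccc1 fell in peritumoral fat, with 64.8, 40.6, 41.8 and 54.8 CPM on HFD, against 77.7, 81.7, 65.1 and 82.7 CPM on Chow, a log2 fold change of -0.64 ± 0.16 (edgeR adjusted p 0.0113). Its highest HFD library reached almost to the lowest Chow library. Bckdhb had a difference of -0.49 ± 0.19 there that missed the threshold (edgeR adjusted p 0.0622) and passed without HFD peritumoral replicate 1 (-0.69, adjusted p 0.00537).

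Counted together, 1 member was higher and 3 were lower on HFD in peritumoral fat, where 33.6% of all genes tested were called (16.4% higher, 17.2% lower). In contralateral fat 5 were higher and 2 lower, where 49.3% of all genes were called (24.5% higher, 24.8% lower). In no-tumor fat 1 was higher and 1 lower, where 24.9% of all genes were called (13.6% higher, 11.3% lower). The members' median log2 fold change was -0.35 in peritumoral, 0.16 in contralateral and -0.01 in no-tumor fat, and that of all genes 0.02, -0.01 and -0.02 in the same order. Summed adipocyte markers were 20621 to 23176 CPM in HFD contralateral and 13975 to 16632 CPM in Chow contralateral fat, a ratio of means of 1.40 (two-sided exact permutation p 0.0286, 0.05 after adjustment). Their ratio was 0.954 in peritumoral fat (adjusted p 0.743, exact permutation) and 0.956 in no-tumor fat (adjusted p 0.743, exact permutation). Macrophage markers, all 6 above 0 in every library, summed to 1913 to 2751 CPM in HFD peritumoral and 984 to 1665 CPM in Chow peritumoral fat. Mammary epithelium markers, 7 of 8 above 0 in every library and Wap at 0 in 11, summed on average to 166 CPM in HFD and 429 CPM in Chow peritumoral fat, 214 CPM in HFD and 449 CPM in Chow contralateral fat, and 342 CPM in HFD and 509.6 CPM in Chow no-tumor fat. Their ratios of HFD to Chow were 0.386, 0.477 and 0.670 at these positions (each exact permutation p 0.0286, 0.05 after adjustment). Endothelial markers, all 4 above 0 in every library, summed to 585 to 598 CPM in HFD and 311 to 356 CPM in Chow no-tumor fat, a ratio of means of 1.80 (exact permutation p 0.0286, 0.1 after adjustment). The part of adipocyte, macrophage, epithelial or endothelial content in these differences was not tested.

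Tumor-bearing mice were then compared with mice without a tumor, in fat away from the tumor. On HFD, Hibadh averaged 126 ± 4.44 CPM in contralateral and 106 ± 7.84 CPM in no-tumor fat, and Bckdha 108 ± 1.07 CPM in contralateral and 94.2 ± 8.48 CPM in no-tumor fat (SD, n = 4 each). With edgeR 0 of the 10 members passed, where 6.08% of all genes tested were called (2.72% higher, 3.37% lower). At an unadjusted p under 0.05 there were 5 of the 10 members and 3633 of all 15718 genes. Hibadh came nearest, at 0.22 ± 0.06 (edgeR adjusted p 0.053), and was the 1 member that DESeq2 called (0.22, adjusted p 0.0301). On Chow, Oxct1 fell, with 125, 124, 116 and 116 CPM in contralateral fat, against 147, 152, 164 and 158 CPM in no-tumor fat. The groups stood well apart, and the log2 fold change was -0.33 ± 0.06 (edgeR adjusted p 0.0132), the 1 call among the 10 members where 7.95% of all genes were called (4.93% higher, 3.02% lower). With Chow contralateral replicate 3 alone the value was -0.41 and did not pass (adjusted p 0.332).

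The dependence of this contrast on diet was called for 4 members: Oxct1 at 0.40 ± 0.08 (edgeR adjusted p 0.00481), Hibadh at 0.40 ± 0.11 (0.0199), Bckdha at 0.39 ± 0.11 (0.0178) and Dbt at 0.35 ± 0.11 (0.0321). In each, the log2 fold change of contralateral over no-tumor fat was above 0 on HFD and below 0 on Chow, for example 0.22 on HFD and -0.16 on Chow for Hibadh. Equally, the diet difference was larger in contralateral than in no-tumor fat. Of all 16676 genes 19.9% were called, 9.94% as higher and 9.94% as lower. The median was 0.25 for the members and 0.01 for all genes. The calls were 0 with all 24 libraries in 1 fit. With Chow contralateral replicate 3 alone, the values were 0.45 for Oxct1, 0.43 for Bckdha, 0.42 for Hibadh and 0.26 for Dbt. Without HFD no-tumor replicate 1, Oxct1 and Bckdha passed, Hibadh did not at 0.33 (adjusted p 0.0522), nor Dbt at 0.29 (adjusted p 0.0841). Dbt also failed without HFD no-tumor replicate 2 or 4, HFD contralateral replicate 1 or 3, Chow contralateral replicate 2 or 4, or Chow no-tumor replicate 4, at 0.28 to 0.35. Adipocyte marker sums ran the same way: HFD contralateral over HFD no-tumor fat had a ratio of means of 1.24, and Chow contralateral over Chow no-tumor fat 0.844 (each exact permutation p 0.0286, 0.05 after adjustment). Other marker sums differed too. The same ratios were 1.25 on HFD and 0.860 on Chow for macrophages, and 0.806 on HFD and 1.27 on Chow for endothelium. They were 0.628 on HFD and 0.882 on Chow for mammary epithelium, and 1.28 on HFD and 8.82 on Chow for skeletal muscle. The part of these cell types in the interaction was not tested.

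Around these 10 genes stood 22 further genes of branched-chain uptake, transamination and breakdown, and 8 of ketone and related metabolism and transport, with Acat1 in both lists. Beside the tumor on HFD, 13 of the 22 branched-chain genes fell and 1 rose, where 12.7% of all genes tested were lower and 16.8% higher. The median log2 fold change of the 22 was -0.44, against -0.02 for all genes. The 4 that fell with the lowest adjusted p were Pccb, the partner subunit of Pcca (-0.76 ± 0.14), Ivd of the leucine route (-0.70 ± 0.14), Acad8 of the valine route (-0.43 ± 0.09) and Aldh6a1, also of the valine route (-0.80 ± 0.17), with edgeR adjusted p of 0.0056 to 0.00918. Slc25a44, the mitochondrial carrier of branched-chain amino acids, fell by 0.44 on the log2 scale (SE 0.11, adjusted p 0.0155). The 1 that rose was Slc7a5, the plasma membrane transporter of large neutral amino acids, with 9.73, 48.8, 20.2 and 31.2 CPM in HFD peritumoral fat, against 7.50, 6.82, 5.42 and 3.88 CPM in HFD contralateral fat (2.23 ± 0.44, edgeR adjusted p 0.0077). Its level differed several-fold among the peritumoral libraries, and replicate 1 was the lowest. That library had the highest adipocyte marker sum of its group, 18754 CPM, and replicate 2, highest for Slc7a5, the lowest, 9900 CPM. The part of cell composition in these differences was not tested. Bckdk, the kinase that switches the dehydrogenase complex off, and Ppm1k, the phosphatase that switches it on, passed in none of the 9 comparisons.

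In the ketone list, 3 of 8 rose and 2 fell beside the tumor on HFD, where 16.8% of all genes tested were higher and 12.7% lower. All 3 that rose are of the monocarboxylate transporter family: Slc16a3 (2.93 ± 0.54), Slc16a6 (1.18 ± 0.18) and Slc16a1 (0.89 ± 0.25), with edgeR adjusted p of 0.00253 to 0.0279. Slc16a3, best known as a lactate exporter, had 11.6, 72.1, 30.1 and 34.4 CPM in HFD peritumoral fat, against 8.65, 4.12, 3.63 and 3.20 CPM in HFD contralateral fat. All peritumoral libraries were above all contralateral ones, replicate 2 most of all. The part of cell composition in the transporter differences was not tested either. Those that fell were Slc16a7 of the same transporter family (-0.74 ± 0.18) and the thiolase Acat1 (-0.51 ± 0.11), with edgeR adjusted p of 0.0159 and 0.0108. On Chow, where 0% of all genes tested were called for side, 0 of the 22 and 0 of the 8 passed with edgeR. At an unadjusted p under 0.05 there were 1 of the 22 and 2 of the 8, and 1381 of all 16057 genes.

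With diet, 13 of the 22 branched-chain genes rose and 0 fell in contralateral fat, and 4 of the 8 ketone genes rose and 1 fell, where 24.5% of all genes tested were higher and 24.8% lower. The median log2 fold changes were 0.22 and 0.28. With Chow contralateral replicate 3 alone in its group, 4 of the 22 and 1 of the 8 passed, all higher, where 16.8% of all genes were called. Mut, which acts after propionyl-CoA carboxylation (0.52 ± 0.05), Acat1 (0.50 ± 0.05), Pccb (0.48 ± 0.06) and Bcat1, the cytosolic aminotransferase (2.12 ± 0.21), had the lowest adjusted p of the branched-chain list, up to 4.2e-05 by edgeR. These are the 4 that passed with replicate 3 alone, at 0.52, 0.55, 0.52 and 1.87. In peritumoral fat, where 33.6% of all genes were called, 3 of the 22 were higher on HFD (Bcat1, Slc7a5 and its heavy chain partner Slc3a2) and 2 lower (Ivd and Aldh6a1). In no-tumor fat, where 24.9% were called, 2 were higher (Bcat1 and Slc3a2) and 4 lower (Slc7a5, Ivd, Echs1 and Slc25a44). Slc7a5 was thus called as higher on HFD beside the tumor (1.54 ± 0.46, edgeR adjusted p 0.032) and as lower on HFD without a tumor (-0.64 ± 0.19, edgeR adjusted p 0.0278). Ivd was lower on HFD at both positions, by -0.70 ± 0.17 in peritumoral and -0.34 ± 0.11 in no-tumor fat (edgeR adjusted p 0.0107 and 0.0373). Bcat1 was higher on HFD at all 3 positions, by 2.27 ± 0.42 in peritumoral and 1.40 ± 0.23 in no-tumor fat (edgeR adjusted p 0.0051 and 0.00204). It had 28.7, 65.7, 32.2 and 55.1 CPM in HFD peritumoral fat, against 5.02, 5.81, 10.6 and 15.9 CPM in Chow peritumoral fat. The lowest HFD library was well above the highest Chow library. Bcat1 therefore went up with diet where Bcat2 went down: the ratio of Bcat1 to Bcat2, in CPM per kilobase, averaged 0.814 ± 0.384 in HFD peritumoral and 0.102 ± 0.0645 in Chow peritumoral fat, and 0.332 ± 0.119 in HFD contralateral and 0.0576 ± 0.0161 in Chow contralateral fat (SD, n = 4 each, no test). It was 0.247 ± 0.0662 in HFD no-tumor and 0.0737 ± 0.0205 in Chow no-tumor fat. The part of cell composition in the diet differences of the wider lists was not tested.

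The ratio of Hibadh to Bcat2, in CPM per kilobase, differed more between the diets than between peritumoral and contralateral fat. It averaged 6.16 ± 0.925 in HFD peritumoral and 3.96 ± 0.688 in Chow peritumoral fat, 6.42 ± 0.577 in HFD contralateral and 3.61 ± 0.436 in Chow contralateral fat, and 6.35 ± 0.415 in HFD no-tumor and 4.78 ± 0.392 in Chow no-tumor fat (SD, n = 4 each, no test, chosen after the values were seen). The diets did not overlap at any position. On Chow, contralateral fat also lay below no-tumor fat without overlap, at a fold of 0.752, while on HFD that fold was 1.01. The part of muscle tissue in the Chow contralateral values was not tested.

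**Figure D4:**
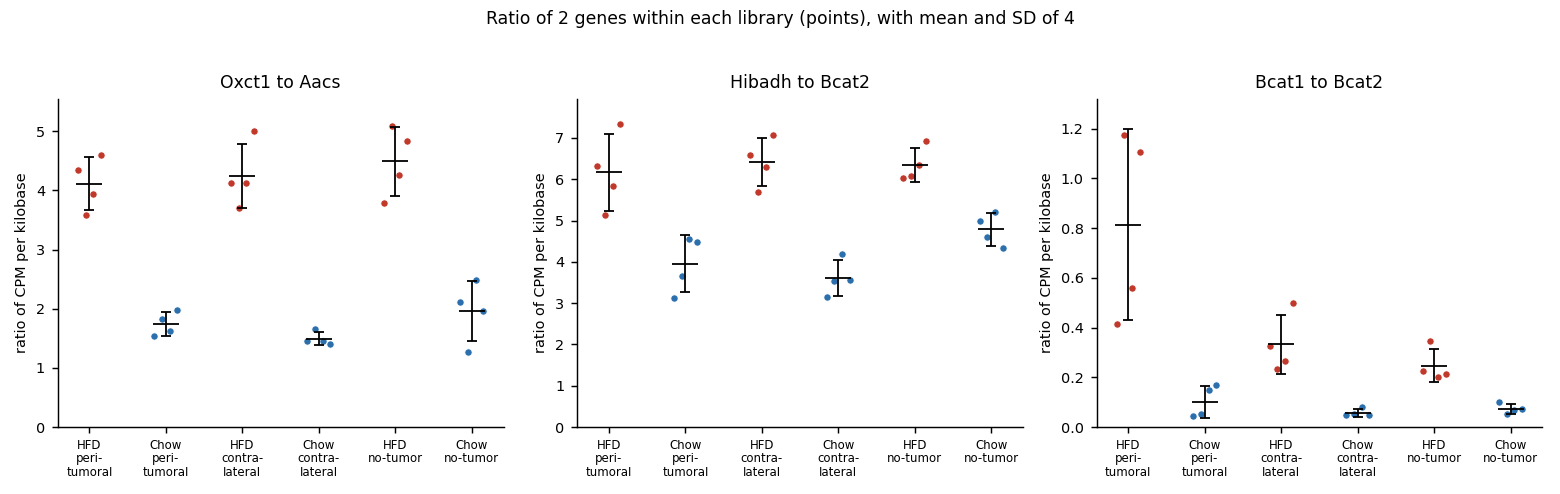
Ratios of CPM per kilobase between 2 genes within each library (points), with the mean and SD of 4 libraries (bars), HFD in red beside Chow in blue at each position. Oxct1 to Aacs was 3.58 to 5.09 in HFD libraries and 1.27 to 2.49 in Chow libraries, and Bcat1 to Bcat2 reached 1.17 in HFD peritumoral fat.

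Hmgcs1, a cytosolic enzyme of cholesterol synthesis, was higher on HFD at each position, by 1.17 ± 0.19 in peritumoral, 1.62 ± 0.24 in contralateral and 1.07 ± 0.10 in no-tumor fat (edgeR adjusted p 0.00201, 0.00118 and 2.5e-05). Of the transporters, Slc16a1 was higher on HFD in peritumoral (0.96 ± 0.29) and contralateral fat (0.59 ± 0.15), and Slc16a6 lower in contralateral (-0.45 ± 0.10) and no-tumor fat (-0.74 ± 0.11), with edgeR adjusted p of 0.000457 to 0.0317. With Chow contralateral replicate 3 alone, the contralateral values of Hmgcs1 (1.12), Slc16a1 (0.56) and Slc16a6 (-0.32) did not pass, at edgeR adjusted p of 0.061, 0.151 and 0.228. Bdh2, a cytosolic dehydrogenase, was lower on HFD in peritumoral (-0.77 ± 0.25) and no-tumor fat (-0.63 ± 0.20), at 1.45 to 2.69 CPM in the group means.

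For tumor bearing the wider lists held few calls. On HFD, Slc25a44 (0.31 ± 0.08) rose in contralateral over no-tumor fat, 1 of 22 branched-chain genes, where 6.08% of all genes tested were called. Of the 8 ketone genes 0 passed there with edgeR, 1 at an unadjusted p under 0.05. On Chow, Acat1 fell (-0.31 ± 0.08), 1 of 22, and in the ketone list Acat1 and Slc16a1 (-0.46 ± 0.11) fell, 2 of 8, where 7.95% of all genes tested were called. The interaction with diet was called for 19.9% of all genes tested, 9.94% as higher and 9.94% as lower. All calls in these lists were higher. The calls were 4 of the 22, Pccb (0.45 ± 0.11), Acat1 (0.42 ± 0.10), Slc25a44 (0.47 ± 0.12) and Acadsb of the isoleucine route (0.35 ± 0.09), and 2 of the 8, Acat1 and Slc16a1 (0.57 ± 0.19). Their edgeR adjusted p were 0.00925 to 0.044, and the median interaction was 0.28 in the branched-chain and 0.46 in the ketone list, against 0.01 for all genes. With Chow contralateral replicate 3 alone, 0 of the 22 and 0 of the 8 passed on Chow or in the interaction by edgeR. Acat1 and Slc16a1 were then at -0.36 and -0.43 on Chow (adjusted p 0.492 and 0.435), and the 5 interactions at 0.33 to 0.51 (adjusted p 0.0988 to 0.241).

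**Figure D5:**
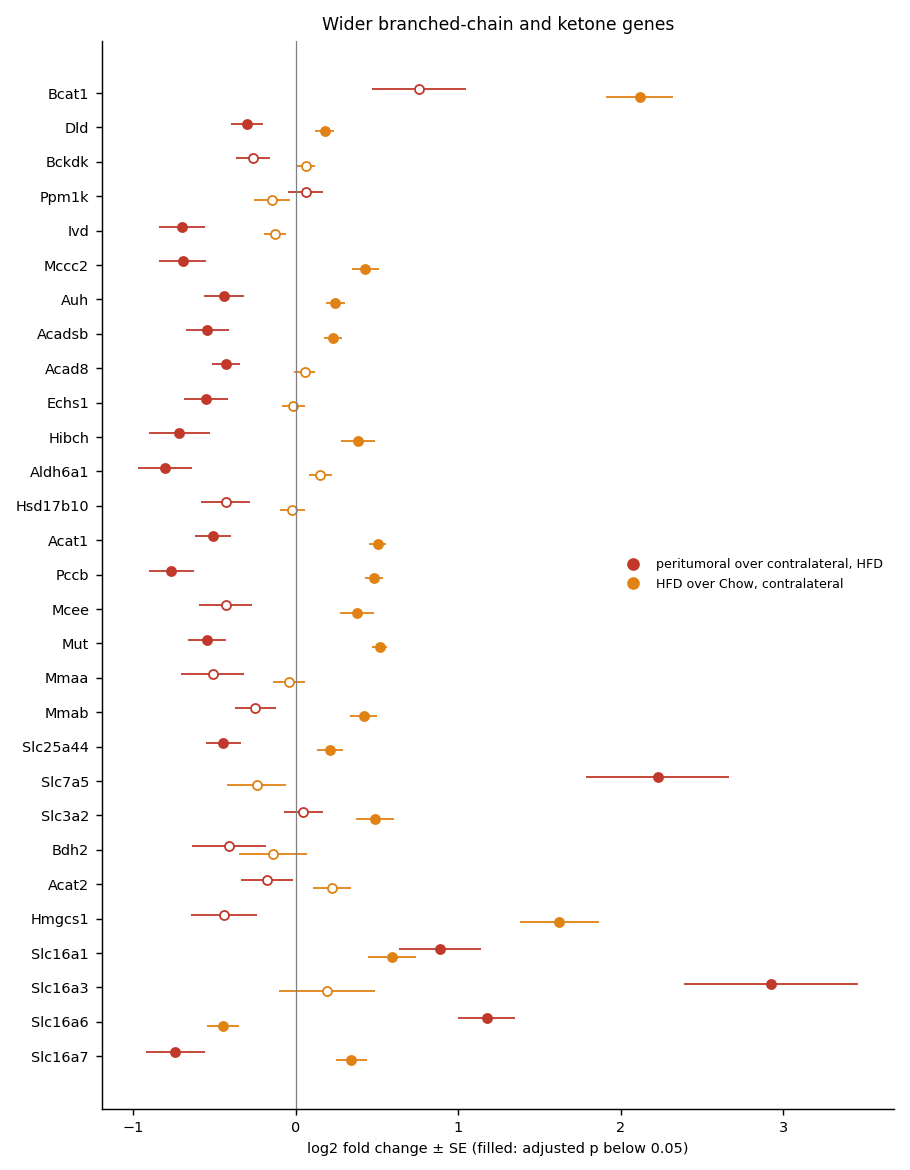
Log2 fold changes with their SE of the 29 genes in the wider branched-chain and ketone lists, peritumoral over contralateral fat on HFD (red) and HFD over Chow in contralateral fat (orange), filled for an adjusted p under 0.05. The 2 comparisons share the HFD contralateral libraries, and the red values lie mostly below 0 with Slc7a5 and Slc16a3 far above.

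Across the 24 libraries the members were set beside all 11167 genes averaging at least 5 CPM, by the root mean square difference of log2 CPM after centring each gene. The libraries differ in diet, position and cell content, which all of these genes share, so the likeness is a description. The closest pair of members was Hibadh and Pcca, 0.088 apart on the log2 scale, followed by Dbt and Hibadh at 0.101. Bcat2 and Aacs were each other's nearest member at 0.182, and Bckdhb and Mccc1 at 0.176. Bckdha lay nearer to Acads, the short-chain acyl-CoA dehydrogenase (0.0945), and to the cytochrome c oxidase subunits Cox8a and Cox6a1 (0.115 each) than to any member. The 3 genes most like Hibadh were Lonp2 (0.0804), Ptgr2 (0.0837) and Pnpla8 (0.088), and those most like Pcca were Apmap (0.084), Cpt2 (0.0955) and Lonp2 (0.0958). Dbt was closest to March5 (0.099), Mgst1 (0.0992) and Lonp2 (0.102), so Lonp2, a peroxisomal protease, was among the 3 nearest genes of 3 members. Oxct1 was closest to Hsd17b4, a peroxisomal enzyme of fatty acid oxidation (0.119), Reep5 (0.119) and Gcsh (0.125), while its nearest member, Hibadh, was 0.362 away. The least matched were Bdh1, whose nearest gene Rab15 was 0.375 away, and Bcat2, whose nearest gene Usp2 was 0.177 away, with Pik3r1 and Ndufab1 next. For Mccc1 the nearest were Acvr1c (0.128), Ptpn4 and Pcnx, for Bckdhb Cat (0.11), Maob and Pcnx, and for Aacs Ddhd2 (0.157), Sccpdh and Dusp16.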

How the data were processed

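The authors deposited raw gene counts in 1 matrix, 39017 genes by 24 libraries; the submitters' processing notes name TopHat, DESeq and mm10, without versions, and the counting program and its strand setting are not given in the sources used here. Groups came from the labels. For the 7 comparisons of groups the fit held the 8 libraries concerned, and for the 2 interactions 16. The test was the robust quasi-likelihood F test of edgeR 4.0.16 (R 4.3.3) after TMM scaling and filterByExpr (minimum count 10, total 15). P-values were adjusted by Benjamini-Hochberg over all genes tested, with a threshold of 0.05. The SE is the log2 fold change over the root of F. Printed CPM used TMM factors of all 24 libraries, and log2 CPM for likeness a prior count of 2. Totals were 9.13 to 18.2 M counts per library. The fits were tested on simulated counts in which 200 genes were changed 2-fold, and smaller changes were not simulated. Across the 9 comparisons edgeR recovered 50.5% to 89% of these genes. The lowest share was that of the side interaction, with 50.5% and 1 false call by edgeR. DESeq2 recovered 60.5% there, with 17 false calls. Marker sums were compared by two-sided exact permutation, adjusted over the 7 comparisons of a list. The members, gene lists and rules were chosen with earlier results of these data known. Named were the members, Bckdk, Ppm1k and Slc25a44, in each comparison up to 4 higher and 4 lower genes called in each wider list with the lowest adjusted p, and the 3 genes most like each member. Some genes of the wider lists are not reported here, and counts leave them out. The alternatives included DESeq2 1.42.0 and RLE scaling. The others were no low-count filter, all 24 libraries in 1 fit, the replicate number as a block, leaving out each library and, added later, Chow contralateral replicate 3 alone; they were run for the members and for counts over all genes, and the last also for the wider lists. Sequences were RefSeq's on GRCm38.p6.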

Additional observations from a re-analysis of the deposited data

Results flagged for a closer look

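Among 60 sets of 4 libraries (10 genes in 6 groups), 4 had a library that stood apart from the other 3 by more than Dixon's 95% critical value of the range; chance flags about 5% of such sets. Bckdhb stood highest in HFD peritumoral replicate 1, at 32.4 CPM, and in HFD contralateral replicate 1, at 35.2 CPM. Hibadh was lowest in HFD no-tumor replicate 1, at 94.6 CPM, and Bckdha highest in Chow no-tumor replicate 2, at 108 CPM. The difference of contralateral from no-tumor fat depended on diet by edgeR's interaction test for Oxct1 (0.40 on the log2 scale), Hibadh (0.40), Bckdha (0.39) and Dbt (0.35).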

How the results depend on the processing

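Of 1377 alternative values of the 90 member results, none reversed a called value. The same number of members was called, within 1.5 times, under all alternatives of HFD against Chow in peritumoral fat (4 to 5 leaving out 1 library, 4 with all libraries) and of peritumoral against contralateral fat on HFD (7 to 9, 9 with all libraries) and on Chow (0). In no-tumor fat the diet calls were 2, but 1 with no low-count filter and 1 to 3 leaving out 1 library. In contralateral fat they were 7, and 4 with Chow contralateral replicate 3 alone. For contralateral against no-tumor fat on HFD they were 0, but 1 with DESeq2 and 1 with no low-count filter, and on Chow 1, but 0 with replicate 3 alone. The interaction with side gave 0, but 5 with DESeq2 and 0 to 6 leaving out 1 library, and that with tumor bearing 4, but 0 with all 24 libraries in 1 fit, 0 with replicate 3 alone and 2 to 4 leaving out 1 library. The cause was not tested.

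The labels do not say that a replicate number marks an animal, so the numbers were not treated as pairs. Whether such libraries share an animal is unknown. In no comparison did all same-numbered pairs correlate above 0.1 (correlations of -0.518 to 0.501). With 4 libraries per group, and values centred within each group, such correlations cannot exclude pairing. The replicate block, fitted all the same, gave 0 members for Chow contralateral against Chow no-tumor fat (Oxct1 -0.33, adjusted p 0.0597) and added Bckdhb to HFD against Chow in peritumoral fat (-0.51, adjusted p 0.0253). In HFD peritumoral against HFD contralateral fat 3 of 4 libraries correlated best with their own number. These were replicates 2, 3 and 4, with correlations of 0.197, 0.370 and 0.501. In no comparison was this so for all 4.

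Counts over all genes moved by more than 1.5 times in these cases. HFD against Chow gave 5353 genes in peritumoral fat, 8799 with all 24 libraries and 3102 without Chow peritumoral replicate 1, and 7847 in contralateral fat, 2875 with replicate 3 alone. Peritumoral against contralateral fat gave 4610 on HFD, 2750 to 6425 leaving out 1 library, and 0 on Chow, 19 with DESeq2, 3 without filter, 9 with replicate 3 alone and 0 to 1 leaving out 1 library. Contralateral against no-tumor fat gave 956 on HFD, 238 with all 24, 629 with the block and 365 to 1220 leaving out 1, and 1268 on Chow, 692 with all 24, 356 with the block, 48 with replicate 3 alone and 375 to 1986 leaving out 1. The side interaction gave 0, 727 with DESeq2, 333 with all 24, 148 with the block, 7 without filter, 1 with replicate 3 alone and 0 to 1911 leaving out 1. The tumor-bearing interaction gave 3314, 1556 with all 24 and 444 with replicate 3 alone. Bdh1 had 4 to 23 counts in a library.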
